A study of Homo sapiens with 20 samples.

Results

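The transcriptome of the parental multiple myeloma line L363 was compared with those of the parental lines AMO1 and RPMI-8226 (RPMI in the sample labels). The comparison used 6 of the 20 RNA-seq libraries of the series, namely 2 biological replicates each of L363 WT, AMO1 WT and RPMI WT, where WT marks cells that had not been selected for drug resistance. All 3 are established human plasma cell lines kept in culture, each here is a single line, and none received a drug. The remaining libraries come from bortezomib-resistant (BtzR) and carfilzomib-resistant (CfzR) cells of these lines, grown in 90 nM of the drug, and from WT and BtzR cells of ARH77, a B-lymphoblastoid line. Bortezomib and carfilzomib inhibit the proteasome. Of the 18305 genes in the table, 12017 reached a mean of 1 FPKM in 1 or more of the 3 parental groups and were compared, 304 of which passed through L363 WT alone. FPKM counts the fragments of a gene relative to its transcript length and to all mapped fragments.

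Multiple myeloma is a cancer of plasma cells, the antibody-secreting end stage of the B-cell lineage. Plasma cells lose most of the B-cell programme (CD20, PAX5), take on IRF4, PRDM1 and XBP1, and fill the endoplasmic reticulum with immunoglobulin. Myeloma lines differ among themselves in the oncogene that a translocation has placed beside an immunoglobulin enhancer, among them MAF, CCND1 and NSD2, and each translocation group is known for its own set of adhesion molecules, cyclins and secreted factors. Lines of this tumour are widely used to study drug response and surface targets, so the spread between them sets what a single line can stand for.

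The 6 parental libraries were alike in overall composition. Their FPKM summed to between 463477 and 494850, and between 10515 and 10955 genes reached 1 FPKM. Read counts do not accompany the values, so the depth is unknown and no counting interval was computed. Across tested genes the log2(FPKM + 1) values of the L363 WT replicates lay a median of 0.07 log2 units apart, and 14 genes were more than 1 unit apart. Pearson's r across genes was 0.86 to 0.87 between L363 WT and AMO1 WT libraries, 0.82 between L363 WT and RPMI WT libraries and 0.82 between AMO1 WT and RPMI WT libraries, as a description over genes, which are not replicates. Both libraries labelled AMO1 CfzR went against their label, with r of at least 0.986 to each L363 library and at most 0.866 to other AMO1 libraries. They entered only the estimate of spread, and leaving them out left the counts of the parental comparison at 904 genes higher and 1143 lower.

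The identity of L363 as a plasma cell line was checked against marker genes. Of 12 plasma cell markers, 11 stood at 10 FPKM or more in both L363 WT libraries. JCHAIN, which joins secreted IgM and IgA, was at 6693 and 4812 FPKM, and SDC1, the plasma cell marker CD138, at 231 and 217 FPKM. FCRL5, a receptor of late B-lineage cells, was the exception at 0.09 and 0.06 FPKM in L363 WT, against 7.13 and 7.29 in AMO1 WT and 0.04 and 0.10 in RPMI WT. The summed level of the list was 7266 to 9483 FPKM in L363 WT, 7125 to 8578 in AMO1 WT and 3587 to 3858 in RPMI WT. B-cell markers summed to between 18.6 and 19.8 FPKM in L363 WT over 13 genes, and MS4A1 (CD20) and PAX5 stayed under 1 FPKM in both libraries. Markers of T and NK cells summed to at most 4.73 FPKM in L363 WT with CD3D at 0, those of myeloid cells to at most 4.15 with FCGR1A at 0, and those of stromal, endothelial and red cells to at most 4.28 with DCN and VWF at 0. Among the markers of these last 3 lists, LYZ at 4.02 and 4.01 FPKM and PECAM1 at 3.94 and 3.57 FPKM were the highest in L363 WT.

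A difference was computed for each gene as its mean log2(FPKM + 1) in L363 WT minus the average of the means in AMO1 WT and RPMI WT, and was tested with limma. Because 1 FPKM was added, differences of weakly expressed genes come out too small on this scale. Calls required a log2 difference of 1 or more in either direction and a p under 0.05 after Benjamini-Hochberg adjustment. By this rule 904 genes (7.52%) were higher and 1143 (9.51%) lower in L363 WT, while the median over all tested genes was 0.01. The p-values rest on the spread between the 2 replicates of a group, pooled over all 10 groups of the series. They therefore speak of these 3 lines and not of myeloma lines in general. Against AMO1 WT alone, 988 genes (8.22%) were higher and 1186 (9.87%) lower, and against RPMI WT alone 1383 (11.5%) were higher and 1489 (12.4%) lower. Because the reference is an average, a gene that is extreme in a single reference line can be called although L363 lies between the others. Both L363 WT libraries lay above all 4 others and the gene was called for 815 genes (6.78% of those tested), and below all 4 and called for 869 (7.23%). Without the call, L363 WT was above all 4 others for 3172 genes (26.4%) and below for 2737 (22.8%). Hence in 89 of the higher and 274 of the lower calls L363 WT did not lie beyond both other lines. Lying beyond is a matter of order and sets no size. MAF and CD48 counted as beyond, although they differed from AMO1 WT by only -0.03 and 0.15 and were not called against it. The 89 and 274 therefore do not hold every call that 1 reference line set. The scatter of L363 WT against the average of the other lines shows the width of both groups.

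**Figure D1:**
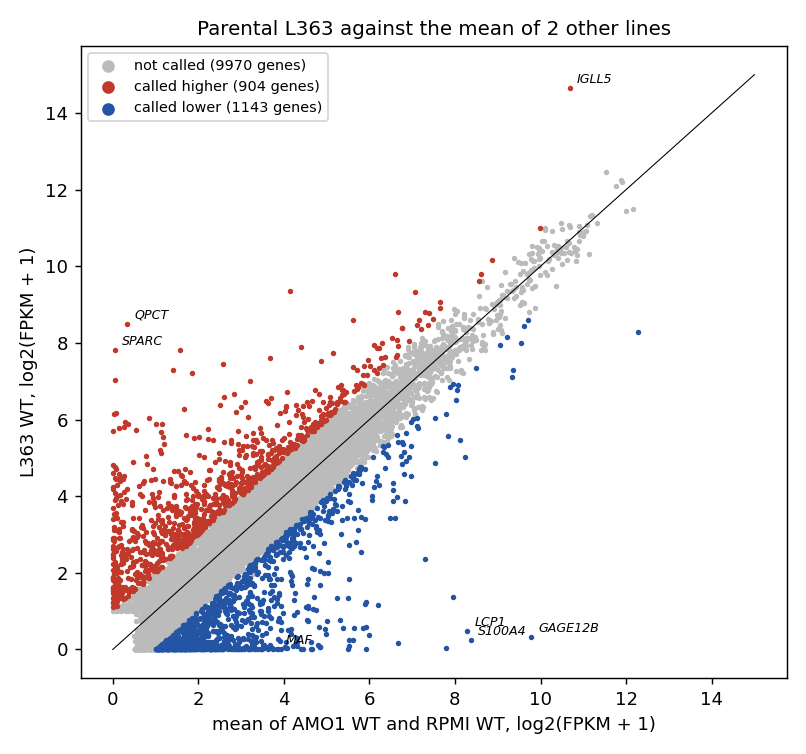
Each point is 1 of the 12017 tested genes, with its mean log2(FPKM + 1) over the 2 L363 WT libraries on the vertical axis and the average of the AMO1 WT and RPMI WT means on the horizontal axis. Red points are the 904 genes called higher, blue points the 1143 called lower, grey points the rest, and the line marks equal values.

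The genes furthest above the other lines included several for secreted, matrix and membrane proteins. QPCT, the enzyme that forms N-terminal pyroglutamate, stood at 378 and 347 FPKM in L363 WT, at 0.10 in both AMO1 WT libraries and at 0.34 and 0.54 in RPMI WT, a log2 difference of 8.17 (SE 0.08, adjusted p = 4.9e-18 by limma). SPARC, a secreted matrix protein also called osteonectin, was at 228 and 219 FPKM in L363 WT and at 0.06 or less in the other 4 libraries (log2 difference 7.77, SE 0.08, adjusted p = 4.9e-18). LAMP5, a lysosome-associated membrane protein best known from neurons, was at 138 and 123 FPKM against 0.09 at most elsewhere (6.98, SE 0.09). For these 3 genes the other lines were close to 0. The largest differences were named only among genes without overlap between L363 WT and the others, so the lack of overlap is no result.

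ADM, which encodes the vasodilator peptide adrenomedullin, was at 215 and 231 FPKM in L363 WT, 0 in AMO1 WT and 7.50 and 8.50 in RPMI WT (log2 difference 6.22, SE 0.12). LEFTY2, a secreted antagonist of Nodal signalling, followed the same order of lines at 165 and 146, 0.25 and 0.47, and 4.05 and 4.37 FPKM (5.88, SE 0.10). In both, RPMI WT carried a low level and AMO1 WT almost none. SFRP2, a secreted Wnt-binding protein, was at 48.0 and 54.0 FPKM in L363 WT and at 0.05 or less in the other libraries (5.68, SE 0.16). BATF2, a basic leucine zipper factor, differed by 6.09, NES, the intermediate filament nestin, by 5.65, PDLIM3, an actinin-associated PDZ and LIM protein, by 5.62, and APBA2, an adaptor that binds the amyloid precursor protein, by 5.56. SMOC1, a secreted calcium-binding matrix protein, closed the 12 largest differences at 5.51 (SE 0.07, adjusted p = 1.2e-16), at 60.3 and 55.4 FPKM against 0.59 at most in the other lines. All 12 were again called higher in L363 among the BtzR cells described at the end.

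**Figure D2:**
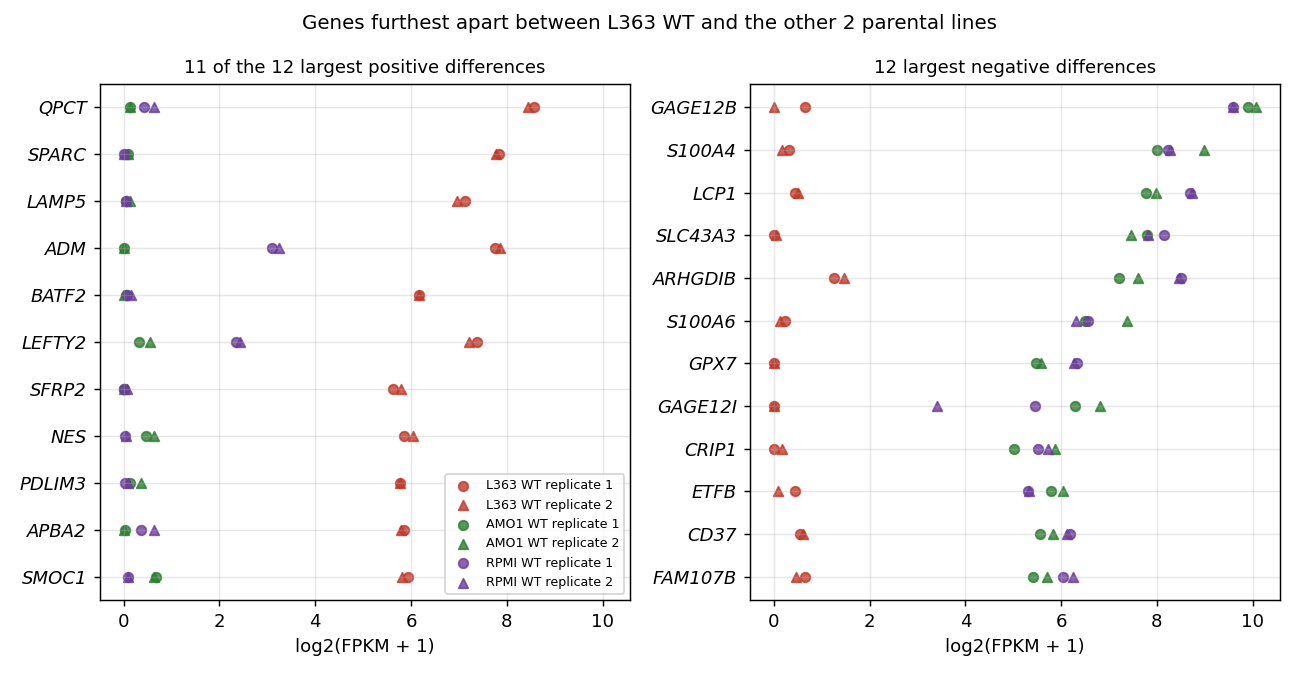
Expression as log2(FPKM + 1) of 11 of the 12 genes with the largest positive and of the 12 with the largest negative differences among called genes whose L363 WT libraries both lie beyond all 4 others. Each symbol is 1 library, with colour for the line and shape for the replicate. On the left the L363 WT symbols stand apart to the right, and on the right they stand close to 0.

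Genes furthest below the other lines included calcium-binding proteins, regulators of the actin cytoskeleton and cancer-testis antigens. LCP1, the leukocyte actin-bundling protein L-plastin, was at 0.36 and 0.42 FPKM in L363 WT, 216 and 252 in AMO1 WT and 414 and 422 in RPMI WT, a log2 difference of -7.82 (SE 0.17, adjusted p = 1.1e-14). S100A4 was at 0.24 and 0.12 FPKM in L363 WT, 254 and 502 in AMO1 WT and 299 and 307 in RPMI WT (-8.13, SE 0.24). Its neighbour S100A6, also a small calcium-binding protein, was at 0.17 and 0.09 FPKM against a lowest value of 78.0 in the other libraries (-6.50, SE 0.19). For all 3 genes L363 WT was close to 0 and both other lines were far above it, where the choice of genes already required no overlap.

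ARHGDIB, a small GTPase inhibitor of haematopoietic cells, was at 1.40 and 1.77 FPKM in L363 WT and at 147 or more in the other 4 libraries (log2 difference -6.58, SE 0.18). SLC43A3, a nucleobase transporter, was at 0 and 0.04 FPKM against 175 to 281 (-7.77, SE 0.23). GPX7, a glutathione peroxidase of the endoplasmic reticulum, was listed at 0 in both L363 WT libraries and at 43.5 to 79.3 FPKM elsewhere. The LIM domain gene CRIP1 differed by -5.44, the mitochondrial flavoprotein subunit ETFB by -5.36, the tetraspanin CD37 by -5.35 and FAM107B by -5.30, each with both L363 WT libraries below 0.6 FPKM. GAGE12B, a cancer-testis antigen gene, gave the largest difference of all at -9.47 (SE 0.28), from 0.56 and 0 FPKM in L363 WT to 766 to 1078 in the other lines. GAGE12I stood at 0 in L363 WT and at 9.64 to 112 FPKM elsewhere. GAGE genes are near-identical copies, so the division of fragments among them is uncertain.

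A stricter rule asked for at least 10 FPKM in both L363 WT libraries and at most 0.1 FPKM in all 4 others, or the reverse. It found 16 genes on in L363 WT alone and 10 off in L363 WT alone. Genes of the first kind included SPARC, LAMP5 and SFRP2, then VCX2 at 27.3 FPKM in both libraries, RTL8A at 25.4 and 26.5, AMER2 at 24.6 and 26.0, FLRT3 at 20.9 and 26.2, NTRK2 at 20.6 and 22.2 and ADGRL2 at 18.4 and 18.8 FPKM. NTRK2 is the receptor of the neurotrophin BDNF, AMER2 a regulator of Wnt signalling, and FLRT3 and ADGRL2 are membrane proteins that bind each other's families at cell contacts. VCX2 and RTL8A belong to families of close copies and their levels are uncertain for that reason. In the resistant cells, which the rule did not use, 14 of the 16 genes stood at 10 FPKM or more in both L363 BtzR libraries and 16 of 16 in both L363 CfzR libraries. In ARH77 WT, 14 of them were at 0.1 FPKM or less and 2, RTL8A and ADGRL2, at 10 or more.

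The 10 genes off in L363 WT were led by SLC43A3 and GPX7. KCNS3, a potassium channel subunit, was at 0.02 and 0 FPKM in L363 WT against 11.9 to 52.3 in the others. SSTR3, a somatostatin receptor, was at 0.03 and 0.06 FPKM against 22.8 to 36.5, and SERPINE2, a secreted protease inhibitor, at 0 and 0.08 against 24.6 to 32.9. ARHGAP15, a Rac GTPase-activating protein, SNX9, an endocytic sorting nexin, NLRP2, BHLHE41, a circadian repressor, and TRIM44 completed the set. In L363 BtzR cells 9 of the 10 were at 0.1 FPKM or less in both libraries, the exception being BHLHE41. In RPMI BtzR cells, however, 4 of the 10 (GPX7, SSTR3, SERPINE2 and ARHGAP15) were also at 0.1 FPKM or less in both libraries, and in AMO1 BtzR cells none was. ARH77 WT carried 4 of the 10 at 10 FPKM or more and 3 at 0.1 or less, so several were shared with the B-lymphoblastoid line and not with L363.

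MAF proteins are basic leucine zipper transcription factors, of which the large ones activate transcription, while the small ones lack an activation domain. MAF was carried by RPMI WT alone. It was listed at 0 in both L363 WT libraries, at 0.02 in AMO1 WT and at 206 and 211 FPKM in RPMI WT (-3.87, SE 0.06). The small members differed little, by 0.37 for MAFG (17.1 and 16.8 FPKM in L363 WT), -0.11 for MAFK (10.7 and 10.8) and -0.60 for MAFF (2.51 and 2.89), none of them called.

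Genes that the literature associates with MAF activity did not move as one. Of 8 tested, 3 were called higher and 3 lower (37.5% each, against 7.52% and 9.51% of all genes). The median log2 difference was 0.36 against 0.01 over all genes. DEPTOR, an mTOR-binding protein, was at 106 and 102 FPKM in L363 WT, 5.39 and 6.62 in AMO1 WT and 35.5 and 44.0 in RPMI WT (log2 difference 2.64, SE 0.17). CCR1, a receptor of CCL3, was at 52.1 and 47.3 FPKM in L363 WT, 0.28 and 0.61 in AMO1 WT and 68.6 and 61.5 in RPMI WT, so that L363 WT and RPMI WT were both high (2.38, SE 0.14). RND3, an atypical small GTPase, was likewise low in AMO1 WT alone, at 0.08 and 0.02 FPKM, against 4.18 and 4.12 in L363 WT and 3.70 and 3.40 in RPMI WT. By contrast the fractalkine receptor CX3CR1 was at 73.1 and 72.9 FPKM in RPMI WT and at 0.07 or less in L363 WT and AMO1 WT, and TLR4 at 9.67 and 10.6 in RPMI WT and 0.11 or less in both other lines. ITGB7, the integrin beta-7 subunit, was at 131 and 113 FPKM in L363 WT, 40.4 and 72.0 in AMO1 WT and 1257 and 974 in RPMI WT. CCND2, the cyclin most linked to MAF, was at 52.6 and 60.9 FPKM in L363 WT and at 56.5 to 77.0 in the other libraries and was not called.

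Among cyclins and translocation oncogenes, 1 gene was higher (10%) and 2 lower (20%) of 10 tested, against 7.52% and 9.51% of all genes. CCND1 was at 0.08 and 0.09 FPKM in L363 WT and at 8.61 to 12.2 in the others (log2 difference -3.39, SE 0.17, adjusted p = 1.9e-10). MYCN, at 4.89 and 4.41 FPKM, exceeded RPMI WT at 1.97 and 1.99 and AMO1 WT at 0 (1.71, SE 0.08). MYCL was lower (-1.42, SE 0.11), at 0.12 and 0.05 FPKM against 0.73 and 0.89 in AMO1 WT and 3.79 and 3.54 in RPMI WT. It was not called against AMO1 WT alone. MYC itself, at 200 and 218 FPKM against 240 to 277, differed by -0.31 and was not called.

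B-cell and plasma cell transcription factors were called in both directions, 7 higher (21.2%) and 6 lower (18.2%) of 33 tested (median 0.11). The shares of all genes were 7.52% and 9.51%. XBP1, the driver of secretory expansion, was at 693 and 603 FPKM in L363 WT, 63.2 and 78.3 in AMO1 WT and 246 and 248 in RPMI WT (log2 difference 2.28, SE 0.10, adjusted p = 1.9e-11). ETS1, a factor that restrains plasma cell differentiation in mice, was also higher at 35.0 and 36.7 FPKM against 0.59 and 0.33 in AMO1 WT and at most 2.22 in RPMI WT (4.09, SE 0.16). IRF4 was higher by 1.04 (SE 0.13), MEF2C by 1.91 and TCF3 by 1.59. ZBTB32 was lower through AMO1 WT alone (39.8 and 40.8 FPKM there, 0.24 or less in the others), and SPI1, encoding PU.1, through RPMI WT alone (20.3 and 22.5 FPKM, 0.15 or less in the others).

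Immunoglobulin and secretion genes were mostly not called, 4 being higher (18.2%) and 2 lower (9.09%) of 22 tested (median 0.09). Over all genes the shares were 7.52% and 9.51%, so the lower share was near that of all genes. IGLL5, whose transcript overlaps the lambda light chain constant segments so that lambda reads can be counted in it, was the most abundant transcript of L363 WT at 27962 and 23549 FPKM, against 250 and 260 in AMO1 WT and 11564 and 9645 in RPMI WT (log2 difference 3.96, SE 0.49, adjusted p = 4.3e-06). FAM46C, a poly(A) polymerase that stabilises secretory transcripts, was at 86.1 and 86.7 FPKM against 15.9 to 32.3 (1.90, SE 0.10). VPREB1, a surrogate light chain gene, was listed at 0 in L363 WT and AMO1 WT and at 52.3 and 51.7 FPKM in RPMI WT. ERN1, the sensor that splices XBP1, was lower by -1.55 while XBP1 was higher. Proteasome genes gave 0 calls of 42 tested by limma, with log2 differences between -0.93 and 0.96. At an unadjusted p under 0.05, 15 were higher and 11 lower, and 25 genes kept an adjusted p under 0.05. L363 WT thus differed from the average of the other lines in proteasome transcripts by less than the size that a call required. AMO1 WT and RPMI WT were not compared with each other, and opposite differences from them cancel in the average.

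**Figure D3:**
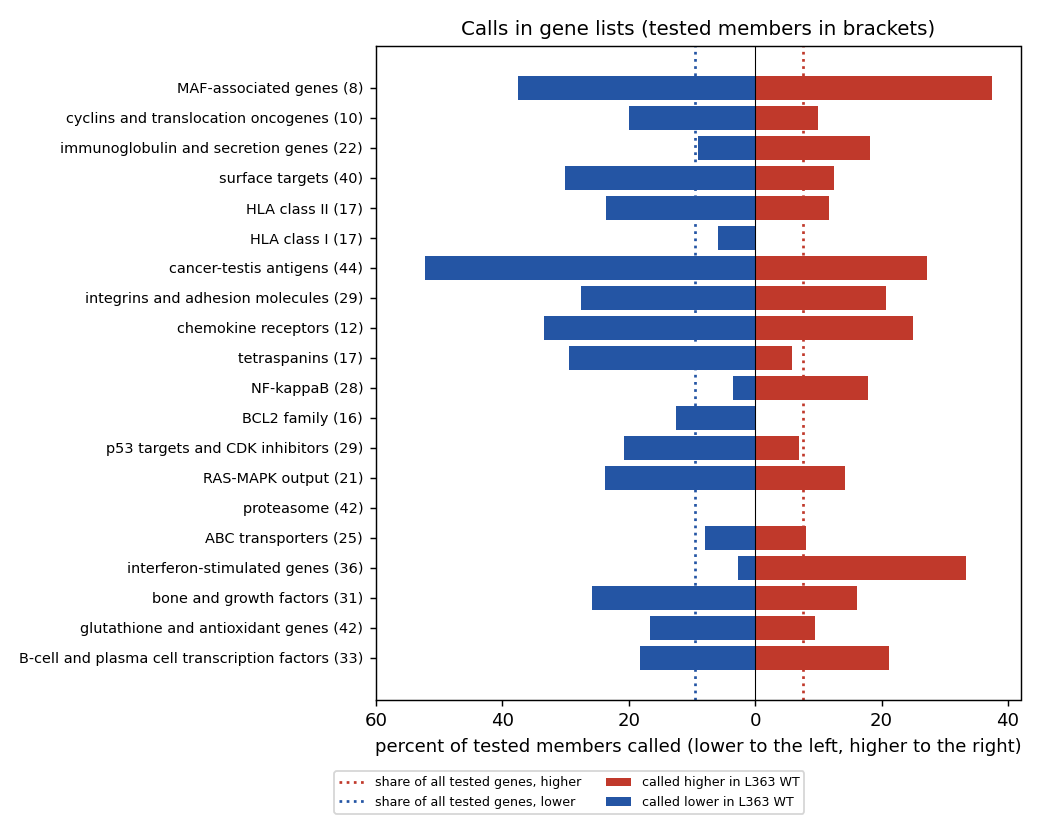
Share of tested members called higher (right, red) and lower (left, blue) in L363 WT for the gene lists shown, with the number of tested members in brackets. Dotted lines mark the shares over all tested genes, 7.52% higher and 9.51% lower, with the cancer-testis antigens reaching furthest to the left and the interferon-stimulated genes reaching 33.3% on the right.

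Of 40 myeloma surface targets tested, 12 were lower and 5 higher in L363 WT (median -0.45), where 9.51% and 7.52% of all genes were called. The balance was the reverse in BtzR cells, with 15 higher and 5 lower for L363, where 8.12% and 8.4% of all genes were called. All 5 higher genes were higher there too, but only 1 of the 12 lower genes was lower in both. SLAMF7, the target of elotuzumab, was at 216 and 175 FPKM in L363 WT, 91.9 and 88.6 in AMO1 WT and 0.74 and 0.82 in RPMI WT (log2 difference 3.94, SE 0.12, adjusted p = 4.9e-13). CD48, its relative in the SLAM family, was at 401 and 366 FPKM in L363 WT, 330 and 359 in AMO1 WT and 6.02 and 5.74 in RPMI WT (2.98, SE 0.11), so the gap came from RPMI WT. TNFRSF13B (TACI) was higher by 2.88 at 89.3 and 99.1 FPKM, and GPRC5D by 1.41, lying between AMO1 WT and RPMI WT. TNFRSF17, encoding BCMA, was at 165 and 147 FPKM in L363 WT against 87.0 to 98.1 in the others, a difference of 0.72 that did not reach the size for a call.

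The lower surface genes had their lowest values in L363 WT for 8 of the 12, where 76% of all lower calls placed L363 WT below all 4 others. EVI2B, a leukocyte membrane protein, was at 2.28 and 2.96 FPKM against 17.7 and 24.7 in AMO1 WT and 95.8 and 96.8 in RPMI WT (log2 difference -3.68, SE 0.13). NCAM1 (CD56) was at 0.06 and 0.01 FPKM against 5.44 to 12.4 (-3.17, SE 0.07, adjusted p = 1.1e-14). LY9 was lower by -2.62 and SEMA4A by -2.72, both with their highest values in AMO1 WT. CD38 was at 17.4 and 16.3 FPKM, close to AMO1 WT at 12.6 and 15.9, and below RPMI WT at 45.6 and 56.7, and was not called.

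Adhesion molecules split, with 6 higher (20.7%) and 8 lower (27.6%) of 29 tested, against 7.52% and 9.51% of all genes. The integrin alpha-8 subunit ITGA8 was at 22.9 and 21.3 FPKM in L363 WT and at 0.24 or less elsewhere (log2 difference 4.27, SE 0.08), and ITGB8, the beta-8 subunit, at 10.1 and 9.61 against 0.65 at most (2.96, SE 0.08). ITGAL, the alpha chain of the leukocyte integrin LFA-1, was at 0.83 and 1.08 FPKM against 11.2 to 19.3 (-3.01, SE 0.17), and CD44, the hyaluronan receptor, was lower by -2.74. Chemokine receptors gave 3 higher (25%) and 4 lower (33.3%) of 12. CCR10, which binds CCL27 and CCL28, was at 55.6 and 47.0 FPKM in L363 WT, above AMO1 WT at 14.7 and 18.4 and RPMI WT at 2.50 and 2.07 (2.78, SE 0.14), and CCR2 was lower through RPMI WT alone (49.2 and 51.0 FPKM there). Of 17 tetraspanins tested 1 was higher (5.88%, near the share of all genes) and 5 lower (29.4%), led by CD37. TSPAN13 was at 1.35 and 1.02 FPKM against 6.48 to 69.9 (-3.43), CD9 was lower through RPMI WT alone (68.5 and 68.1 FPKM), and TSPAN17 was the higher one (1.68, SE 0.10).

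HLA class II genes differed in which DR beta gene was read. HLA-DRB5 was at 24.7 and 25.4 FPKM in L363 WT, 2.27 and 2.83 in AMO1 WT and 0.03 and 0.06 in RPMI WT (log2 difference 3.76, SE 0.15). HLA-DRB3 was at 0 and 0.03 FPKM in L363 WT and at 20.4 and 29.8 in AMO1 WT (-2.91, SE 0.11), and HLA-DRB4 was lower by -1.56. These genes are close copies whose presence varies between haplotypes, and reads can be assigned among them, so their levels are uncertain. HLA-DQB1 was at 52.1 and 46.2 FPKM in L363 WT, level with AMO1 WT at 51.7 and 56.8, and RPMI WT was at 1.01 and 1.46. CD74, the invariant chain, was at 1248 and 1138 FPKM and not called. In all, 2 class II genes were higher (11.8%) and 4 lower (23.5%) of 17, against 7.52% and 9.51% of all genes. Of 17 class I genes 1 was called, lower (5.88%). It was the regulator NLRC5, at 2.70 and 2.86 FPKM against 6.44 to 8.30 (-1.15, SE 0.07).

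Of 36 interferon-stimulated genes tested, 12 were higher in L363 WT (33.3%, against 7.52% of all genes) and 1 was lower (2.78%, against 9.51%). The median log2 difference was 0.48. MX1, a GTPase that blocks viral replication, was at 50.6 and 41.3 FPKM in L363 WT, 0.06 and 0.07 in AMO1 WT and 4.02 and 3.49 in RPMI WT (log2 difference 4.38, SE 0.21, adjusted p = 6.8e-11). IFITM1, a membrane protein that restricts virus entry, was at 115 and 78.4 FPKM against 20.9 and 23.4 in AMO1 WT and 0.40 and 0.79 in RPMI WT (3.99, SE 0.27). IFI6 was at 43.8 and 26.2 FPKM against 2.53 to 7.81 (2.64, SE 0.19), and USP18, the deconjugase of ISG15, at 5.33 and 4.99 against 0.51 at most (2.39, SE 0.15). ISG15 was at 50.4 and 29.6 FPKM against 6.25 to 8.27 (2.26, SE 0.33, adjusted p = 2.3e-05). The factors IRF7 and IRF9 that drive the response were among the 12, by 1.70 and 1.94.

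All 12 lay above all 4 other libraries, where 90.2% of all genes called higher did so. In 12 of 12 the first L363 WT replicate was higher than the second, by as much as 50.4 against 29.6 FPKM for ISG15. The share of all genes with this order of replicates was not counted. Other members did not follow. IFIT1 (-0.37), RSAD2 (-0.25) and BST2 (-0.30) were not called, IFI44L and CMPK2 were too low to be tested, and IFI16, a DNA sensor, was lower at 28.5 and 26.9 FPKM against 70.3 to 149 (-1.92, SE 0.16).

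Interferon-stimulated genes are read through the ISRE, a promoter element bound by STAT and IRF proteins, whose core was searched as GAAA repeated once in the same direction after a gap of any 2 bases, on both strands, in RefSeq promoters of GRCh38.p14 that run from 250 bases before to 50 after a start. Counting any listed start of a gene, the core was found for 3.93% of the 9888 tested genes with a promoter sequence and for 20 of 29 (69%) of the interferon list, and for 4 of the 8 called higher that had one. The proportion was 3.76% over all genes called higher and 5.1% over those called lower, both near that of all genes. The windows of 90 bases upstream of the starts of these 4 genes are shown because they are the called genes that carry the core, which stands in capitals (or its reverse complement, in MX1). They are chr1:1013350-1013439 on the plus strand, chr1:27672236-27672325 on the minus strand, chr11:313950-314039 on the plus strand and chr21:41431814-41431903 on the plus strand, in this order:
ISG15: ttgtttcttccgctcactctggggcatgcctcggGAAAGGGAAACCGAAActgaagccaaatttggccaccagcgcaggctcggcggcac
IFI6: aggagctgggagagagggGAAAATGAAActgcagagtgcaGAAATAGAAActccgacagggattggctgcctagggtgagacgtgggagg
IFITM1: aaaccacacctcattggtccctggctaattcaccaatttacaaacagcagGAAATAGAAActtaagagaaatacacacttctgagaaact
MX1: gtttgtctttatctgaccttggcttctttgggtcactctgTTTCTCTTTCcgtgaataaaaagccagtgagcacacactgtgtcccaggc

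The ISG15 window shows the core at 2 places, which overlap, the IFI6 window at 2 separate places, and the other windows once. The MX1 window belongs to one of several RefSeq starts of the gene. A match to these letters is a description and not a bound site. The half-site TGCTGAC of MAF proteins was searched in the same way and was present for 4.73% of all tested genes, 6.27% of those called higher and 6.46% of those called lower, without a gap between the directions.

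NF-kappaB genes included 5 higher (17.9%) and 1 lower (3.57%) of 28 tested, against 7.52% and 9.51% of all genes. In BtzR cells 1 of the 28 was called higher and 0 lower for L363, where 8.12% and 8.4% of all genes were called. MAP3K14, the kinase NIK of the non-canonical pathway, was at 88.0 and 90.5 FPKM in L363 WT, 15.6 and 15.1 in AMO1 WT and 7.62 and 7.86 in RPMI WT (log2 difference 2.92, SE 0.08, adjusted p = 2.7e-13). The inhibitor NFKBIA, itself a target of the pathway, was at 83.2 and 79.5 FPKM against 12.8 to 20.5 (2.30, SE 0.22), and BIRC3 at 34.5 and 45.6 against 25.3 and 29.4 in AMO1 WT and 4.47 and 4.82 in RPMI WT (1.69, SE 0.22). TRAF1 and BCL3 were higher by 1.05 and 1.21, and the receptor TNFRSF1A was lower (-2.01, SE 0.14). TNFRSF1A was at 1.14 and 0.73 FPKM in L363 WT, 2.29 and 2.89 in AMO1 WT and 16.3 and 15.2 in RPMI WT. It was not called against AMO1 WT alone.

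Targets of p53 and CDK inhibitors gave 6 lower (20.7%) and 2 higher (6.9%) of 29 tested. Over all genes the shares were 9.51% and 7.52%, so the higher share was near that of all genes. CDKN2C, the CDK inhibitor p18, was at 181 and 169 FPKM in L363 WT, 35.5 and 34.5 in AMO1 WT and listed at 0 in both RPMI WT libraries (log2 difference 4.87, SE 0.14). MDM2 was at 7.03 and 7.67 FPKM in L363 WT, 111 and 101 in AMO1 WT and 5.36 and 6.60 in RPMI WT (-1.71), and PHLDA3 at 0.39 and 0.40, 18.4 and 16.7, and 0.41 and 0.40 (-1.87), so AMO1 WT alone was high in both. GADD45A was at 2.60 FPKM in both L363 WT libraries and at 10.2 to 17.6 in the others (-2.00, SE 0.19). In the BCL2 family 0 were higher and 2 lower (12.5%, near the 9.51% of all genes) of 16. The 2 were the proapoptotic BIK (-1.78, SE 0.11) and BMF (-1.26, SE 0.21).

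RAS-MAPK output genes gave 3 higher (14.3%) and 5 lower (23.8%) of 21, against 7.52% and 9.51% of all genes. NRAS was higher by 1.14. The ERK phosphatase DUSP4 was at 17.8 and 19.7 FPKM in L363 WT, 5.66 and 4.87 in AMO1 WT and 0.46 and 0.44 in RPMI WT (log2 difference 2.71, SE 0.17), and PHLDA1 at 18.6 and 21.2 against 2.99 at most (3.06, SE 0.10). The ERK-induced ETV4 went the other way at 8.21 and 10.7 FPKM against 26.5 to 60.0 (-1.99, SE 0.13), as did ETV5, SPRY2 and SPRY4 with differences from -1.35 to -1.01. Secreted bone and growth factors gave 5 higher (16.1%) and 8 lower (25.8%) of 31. Besides SFRP2, WNT5A was at 14.2 and 13.0 FPKM against 0.32 at most (3.67, SE 0.12), WNT10A at 31.3 and 29.9 against at most 12.5 in AMO1 WT and 1.31 and 1.39 in RPMI WT (2.50, SE 0.20), and DKK1 was higher by 1.13. CCL3L3, a copy-number-variable chemokine gene, was lower through AMO1 WT alone (48.6 and 54.8 FPKM there).

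Glutathione and antioxidant genes gave 4 higher (9.52%) and 7 lower (16.7%) of 42 (median -0.14), the higher share being near the 7.52% of all genes. GSTP1 was at 0.06 and 0.24 FPKM in L363 WT, 448 and 533 in AMO1 WT and 0.11 and 0.45 in RPMI WT, so that AMO1 WT alone carried it (log2 difference -4.44, SE 0.13). GSTO2 was at 0.40 and 0.30 FPKM against 7.75 to 16.9 (-3.16, SE 0.12), and GSTM1 at 1.03 and 0.81 against 2.55 to 33.4 (-2.54, SE 0.11). GSTM1 is commonly deleted and has close copies, which makes its level uncertain. ABC transporters gave 2 higher and 2 lower of 25 (8% each), near the 7.52% and 9.51% of all genes. ABCG2, a drug efflux pump, was at 0.09 FPKM in both L363 WT libraries and at 0.91 and 0.77 in AMO1 WT. RPMI WT was at 17.7 and 16.1 (-2.40), and the gene was not called against AMO1 WT alone. ABCA5 was lower (-1.24), and ABCB6 (2.08) and the cholesterol exporter ABCA1 (1.52) were higher.

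Cancer-testis antigens, germ cell genes of the X chromosome for the most part, were the list with the largest share of calls. Of 44 tested, 12 were higher (27.3%) and 23 lower (52.3%), against 7.52% and 9.51% of all genes (median -1.10). GAGE, XAGE1 and SSX genes were lower. MAGEC1 was at 72.2 and 80.7 FPKM in L363 WT, 10.0 and 8.34 in AMO1 WT and 0 and 0.01 in RPMI WT (log2 difference 4.60, SE 0.08, adjusted p = 1.1e-15), and MAGEA2, MAGEA3 and MAGEA12 were higher by 3.38, 3.33 and 1.79. Of the calls, 9 of the 12 higher and 10 of the 23 lower placed L363 WT beyond all 4 others, against 90.2% and 76% of all higher and lower calls. Genes of these families share near-identical sequence, and counts over them are not counts of independent genes.

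Calls also lay next to each other along the chromosomes. In the RefSeq gene order of GRCh38.p14, used for neighbours only since the files do not name their build, 64 runs of at least 3 adjacent tested genes were called in the same direction, 25 higher and 39 lower, holding 223 genes. The longest 2 runs had 7 genes each. One, on the X chromosome, held 6 GAGE genes and PAGE1, all lower. The other, on chromosome 5, ran from SLC12A2 to FNIP1 with HINT1 among its members, all higher by 1.27 to 5.19. A run of 6 on the X chromosome held GABRA3 and MAGEA genes, all higher, and a run of 5 on chromosome 11 held the fatty acid desaturases FADS1, FADS2 and FADS3, RAB3IL1 and the ferritin heavy chain gene FTH1, all lower by -5.02 to -1.75.

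Chromosome 5 stood apart as a whole. Of its 513 tested genes, 116 (22.6%) were called higher, against 7.52% of all genes, and 36 (7.02%) lower, against 9.51%. Both L363 WT libraries were above all 4 others for 304 of them (59.3%, against 26.4% overall), and 7 of the 25 runs of higher genes were on this chromosome. The median log2 difference was 0.56, and 0.48 against AMO1 WT and 0.59 against RPMI WT taken singly. Other chromosomes had medians between -0.40 (chromosome 18) and 0.31 (chromosome 7). In BtzR cells the chromosome 5 median was 0.06. Between BtzR and WT cells of a line, the median of these genes moved by 0.00 in L363, 0.43 in AMO1 and 0.47 in RPMI, whereas over all chromosomes the 3 medians were 0.00, -0.01 and 0.06. The chromosome was singled out after these values were seen and the medians carry no test.

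**Figure D4:**
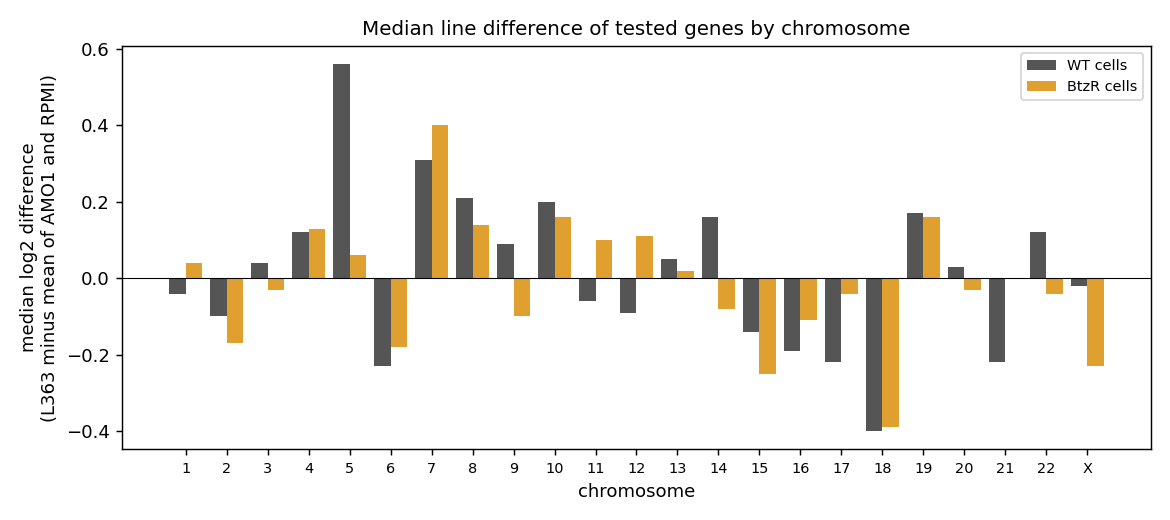
Median log2 difference (L363 minus the average of AMO1 and RPMI) of the tested genes of each chromosome, in WT cells (grey bars) and in BtzR cells (orange bars). Chromosome 5 has the highest bar in WT cells, at 0.56, and stands at 0.06 in BtzR cells.

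The line comparison was repeated in BtzR cells of the same lines, whose 6 libraries share none with the parental comparison. L363 BtzR was called higher than the average of AMO1 BtzR and RPMI BtzR for 976 genes (8.12%) and lower for 1010 (8.4%). Of the 904 genes higher in L363 WT, 570 (63.1%) were also higher in BtzR cells and 2 were lower, and the 570 made up 58.4% of the BtzR calls in that direction. Of the 1143 lower genes, 610 (53.4%) were also lower in BtzR cells, 60.4% of those BtzR calls, and 15 were higher. Among the called genes that had set L363 WT beyond all 4 libraries, L363 BtzR was again beyond all 4 for 76% of the higher and 63.1% of the lower ones. The shares over all tested genes were 26.4% above and 22.8% below in WT cells and were not counted in BtzR cells. QPCT, LCP1 and ETFB kept differences of 8.23, -7.12 and -5.58.

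Other genes had a smaller difference in BtzR cells. Of the WT calls, 332 of the higher (36.7%) and 518 of the lower (45.3%) were not called there, CD37 and CRIP1 among them. CD37, at 0.46 and 0.52 FPKM in L363 WT and 45.9 to 71.9 in the other WT libraries, was at 0.62 or less in all 6 BtzR libraries, and its log2 difference went from -5.35 to 0.35. CRIP1 was likewise at 0.13 or less in all 6 BtzR libraries. GPX7 was at 3.07 and 2.95 FPKM in AMO1 BtzR and at 0.09 and 0 in RPMI BtzR, and ARHGDIB at 15.8 and 19.5 and at 3.21 and 5.18. HLA-DRB5 was at 10.3 and 12.9 FPKM in L363 BtzR, 36.7 and 29.3 in AMO1 BtzR and 0 in both RPMI BtzR libraries, so AMO1 lay above L363 in BtzR cells and below it in WT cells. The difference between the BtzR and the WT contrast was tested itself, as an interaction in limma, and was called for 1112 genes (9.25%). It was called for 202 of the higher genes (22.3%) and 396 of the lower genes (34.6%). Over all genes the interaction was called in 652 positive and 460 negative cases, and in 1006 and 691 with a pseudocount of 0.01.

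The gap narrowed for 142 of the higher and 338 of the lower genes. Both counts are descriptions, since the genes were chosen for a large difference in the WT values that the interaction uses again, and a gene near 0 in L363 WT cannot go lower. The group means of BtzR and WT cells correlated across genes with r = 0.985 in L363, 0.944 in AMO1 and 0.897 in RPMI, the highest of these 3 lines being L363. The resistant cells differ from the parental ones both in selection and in the drug in their medium, and these cannot be told apart here.

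**Figure D5:**
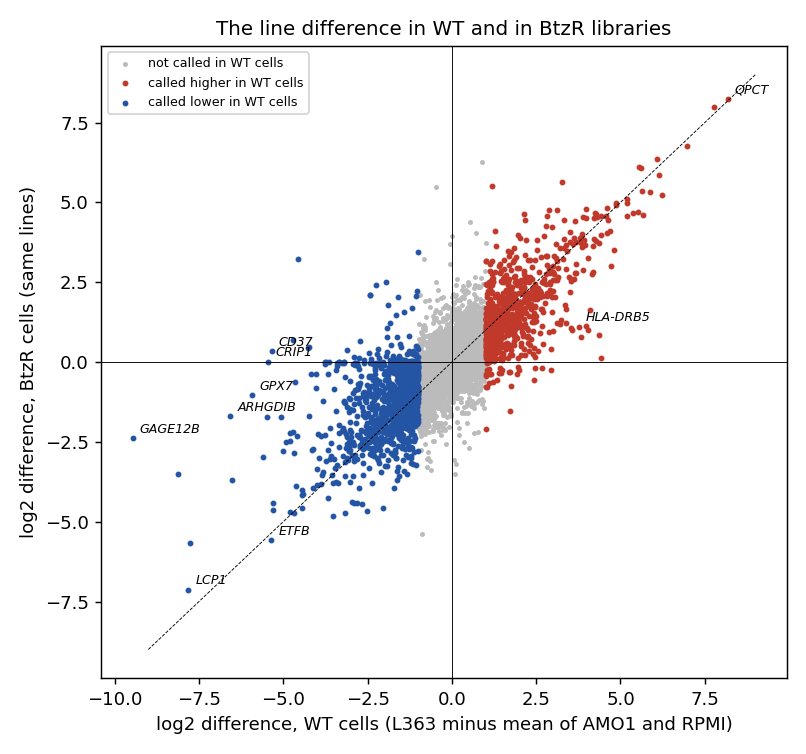
Log2 difference between L363 and the average of AMO1 and RPMI in WT cells (horizontal axis) and in BtzR cells (vertical axis) for each of the 12017 tested genes, coloured by the WT call. The dashed line marks equal differences. QPCT, LCP1 and ETFB lie near it, while CD37, CRIP1, GPX7 and ARHGDIB lie between -1.70 and 0.35 in BtzR cells.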

How the data were processed

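RNA-seq libraries of 10 groups with 2 biological replicates each were prepared and sequenced by BGI on the BGISEQ-500. The authors deposited FPKM values per gene and replicate. The submitters' processing notes name HISAT2 2.0.4, Bowtie2 2.2.5 and RSEM 1.2.12, and the genome build is not given in the sources used here. Values do not come out as whole reads, so depth is unknown and no count model was used. Libraries were grouped by the line, drug and replicate number of their labels.

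Values were transformed as log2(FPKM + 1), and limma 3.58.1 in R 4.3.3 estimated 10 group means from all 20 libraries (10 residual degrees of freedom, mean-variance trend, two-sided moderated tests, Benjamini-Hochberg adjustment over the 12017 genes). Exact permutation of 2 against 2 libraries cannot reach 0.05 and was not used. Tests were run on simulated data, where 97 of 100 genes with a log2 change of 1.5 and 99 of 100 with a change of 2 were called for the parental comparison among 11260 genes. The changed genes were drawn from the better expressed ones and the noise was normal, so the recovery does not cover weakly expressed genes.

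The comparison and the gene lists were chosen with earlier results of these data known. Named genes are the 12 largest differences in each direction among called genes with both L363 WT libraries beyond all others, all tested MAF family members, up to 10 genes on and 10 off, and up to 4 called members with the largest difference of each list. Other genes were chosen after their values were seen. Some items that these rules cover are not reported here. Of the gene IDs, 18261 were found in RefSeq (GRCh38.p14), which gave gene order and promoters, and 25 symbols stored as dates were restored from the ID. Sex-linked identity genes were left out. Python 3.11.15 was used for summaries.

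Alternatives were a pseudocount of 0.1 or 0.01, no filter or one of 5 FPKM, equal sums per library, quantile normalization, no trend, a replicate block, fewer libraries in the fit and each replicate left out.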

Additional observations from a re-analysis of the deposited data

Results flagged for a closer look

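For 48 of the 102 genes named by rule, the difference between L363 and the average of AMO1 and RPMI was not the same in BtzR as in WT cells by limma's test of the interaction, with an adjusted p of 0.01 or less. Over all tested genes 9.25% were called, and the named genes were chosen for large differences in WT cells. The values below are the log2 difference in BtzR cells minus that in WT cells, and a positive value for a gene that was lower in L363 WT means that the gap narrowed.

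Among the largest negative differences, the gap narrowed for GAGE12B (7.09), CD37 (5.69), CRIP1 (5.45), ARHGDIB (4.88), GPX7 (4.88), S100A4 (4.61), GAGE12I (3.76), S100A6 (2.82) and SLC43A3 (2.11). Among genes off in L363 WT, ARHGAP15 (4.04), SERPINE2 (2.57), SSTR3 (2.32) and BHLHE41 (1.38) did the same. Genes of the largest positive differences and genes on in L363 WT narrowed less, by -1.01 for ADM, -1.08 for SFRP2, -1.30 for VCX2 and -1.36 for ADGRL2.

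Surface, adhesion and HLA genes that narrowed from below were EVI2B (3.32), CCR2 (2.78), NCAM1 (2.70), GAGE12G (2.28) from the cancer-testis list, ITGAL (1.84) and HLA-DRB4 (1.05). Those that narrowed from above were HLA-DRB5 (-2.66), HLA-DQB1 (-1.97), ITGB8 (-1.40) and TSPAN17 (-1.17). The gap widened for CD48 (1.25) and for HLA-DRB3 (-1.49).

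In signalling, transcription and metabolism, values from below were VPREB1 (2.83), SPI1 (2.08), TNFRSF1A (1.92), GSTO2 (1.87), ABCG2 (1.65), TLR4 (1.53), GSTM1 (1.37), ETV4 (1.16), BMF (1.11) and ABCA5 (1.03). Values from above were IFITM1 (-2.85), ETS1 (-2.46), DUSP4 (-2.16), NFKBIA (-1.76), USP18 (-1.42), MYCN (-1.18), BIRC3 (-1.18), WNT10A (-1.04) and PHLDA1 (-1.03). For IFITM1 the RPMI BtzR libraries were at 46.0 and 51.9 FPKM, where RPMI WT had 0.40 and 0.79. No cause was tested for any of these differences.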

How the results depend on the processing

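The parental comparison had 16 alternatives. Wherever they were tested, the 102 genes named by rule kept the direction of their log2 differences and their side of the threshold. MYCN, MYCL, BMF, ABCA1 and ABCA5 had no parental group mean of 5 FPKM, so the filter of 5 FPKM left them out. The counts of genes called for L363 WT against the average of AMO1 WT and RPMI WT stayed within 1.5 times 904 higher and 1143 lower, reaching 1321 and 1650 with smaller pseudocounts, 743 and 886 with a filter of 5 FPKM, 842 and 1193 with equal sums per library, and 939 and 1083 with quantile normalization. Leaving out each replicate gave 881 to 945 higher and 1113 to 1179 lower. The labels share replicate numbers between groups, but the deviations of same-numbered parental libraries correlated across genes with r of -0.02, 0.09 and 0.12, so the numbers were not taken to pair the samples. With the replicate block the counts were 904 and 1143, and with the 6 parental libraries alone 906 and 1145. The count of genes whose line difference changed between WT and BtzR cells depended most on the pseudocount, with 652 higher and 460 lower at 1 against 1056 higher at 0.1 and 1006 higher and 691 lower at 0.01. The cause was not tested. Of 720 counts within lists or on chromosome 5 under the alternatives, 29 moved by more than 1.5 times, all of them counts of at most 5 genes. Precision rests on 2 replicates per line, depth is unknown, and 3 lines do not sample myeloma.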

Other observations

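A set of 32 genes of leukocyte cytoskeleton and signalling was written down after several of its members had been seen to be low in L363 WT, so it is a description and carries no test. All 32 were tested as single genes in the comparison, where 19 were lower, 3 were higher and 10 were not called (median log2 difference -1.89), where 9.51% of all genes were lower and 7.52% higher. NCKAP1L, a subunit of the haematopoietic WAVE complex, was at 0.08 FPKM on average in L363 WT, 15.5 in AMO1 WT and 47.2 in RPMI WT. WAS, the Wiskott-Aldrich protein, was at 1.28, 46.0 and 73.7 FPKM, the kinase BTK at 0.51, 19.6 and 38.5, and the Rap1 adaptor APBB1IP at 0.69, 31.8 and 47.7. In ARH77 WT, the B-lymphoblastoid line, these 4 genes had means of 28.7, 45.2, 49.9 and 22.8 FPKM. The 3 higher genes were FERMT3 (kindlin-3) at 65.2 FPKM in L363 WT against 1.03 in AMO1 WT and 0.59 in RPMI WT, the Rac activator DOCK2 at 43.8, 0.28 and 16.0, and VAV1 at 60.0, 25.3 and 17.6. RAC2, CYTIP and WIPF1 were not called and differed little between the lines.

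In BtzR cells the same set gave 12 higher and 8 lower calls for L363, against 8.12% and 8.4% of all genes, and the 8 lower genes were all among the 19. WAS was at 1.52 FPKM on average in AMO1 BtzR and 16.5 in RPMI BtzR, BTK at 0.08 and 0.05, and APBB1IP at 0.55 and 0.03, whereas LCP1 stayed at 308 and 291 FPKM there.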
